A study of Sus scrofa with 12 samples.

Results

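Myosin filament genes and the skeletal myosin kinase were examined in the cleavage maps of pig loin muscle, as the 5 genes MYH2, MYL1, MYBPC2, MYLK2 and MYH7. A gene counted as listed wherever any of its identifiers stood in a gene cell of a table, and its entries were grouped by small RNA and by the position of the cut. These 5 genes are 5 of the 1418 gene identifiers listed in the 12 tables, and 99 of the 19855 entries belonged to them. Of the 99 entries, 98 gave the gene's symbol and 1, in a Hampshire library, gave the Ensembl identifier of MYH2 alone. The fast-fibre genes MYH2, MYL1, MYBPC2 and MYLK2 held 98 entries, and the slow-fibre gene MYH7 held 1.

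The 12 libraries came from loin muscle of female pigs of the breeds Hampshire, Pietrain and Polish Large White, 4 libraries each, all recorded at day 180 and slaughtered at 100 ± 2 kg after the same feeding and housing. The labels give no treatment or allele, and do not say whether a library holds RNA of a single animal. The p-values of the permutation tests below therefore refer to these libraries and not to animals. Each deposited p-value belongs to an entry of a single library. In each breed 2 libraries were titled low MM, with shear force given as light, and 2 were titled high MM, with shear force given as heavy. MM is not spelled out in the sample labels; the series title refers to muscle mass. For the 4 Pietrain libraries the tab names of the deposited workbook exchange high and low MM against the titles, so counts by MM are given by the titles and then by the tab names.

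Skeletal muscle contracts when the heads of myosin heavy chains, built into thick filaments, pull on actin filaments. Each heavy chain carries an essential and a regulatory light chain at its neck, and myosin-binding protein C runs as stripes across the thick filament. Fast and slow fibres use different genes for these proteins, and the loin of the pig is a mostly fast muscle. Skeletal myosin light chain kinase, switched on by calcium, phosphorylates the regulatory light chain of fast fibres and raises the force of later twitches. Small RNAs loaded on Argonaute proteins can direct a cut in a messenger RNA, and the PARE assay, for parallel analysis of RNA ends, collects the 5′ ends that such cuts, and other decay, leave behind.

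PAREsnip pairs these ends with small RNAs and gives each pair a category, an alignment score and a p-value. Category 0 is the strongest evidence, an end that is the most abundant of its reference sequence, and category 4 the weakest, an end seen once. Each entry here gives a short genomic window and not a transcript, so a category need not hold for the whole messenger RNA. A lower alignment score is a closer match, and the highest score in the tables was 4.5. The cut was placed at the sum of the listed start and the cleavage position, which ran from 10 to 71, so that up to 62 overlapping windows can list the same cut. No genome build is stated in the labels or the tables. Of 1260 listed symbols found in RefSeq's Sscrofa11.1 gene table, 88.0% had a listed position inside the gene of that name, and positions below are those of the deposited tables. Exon and untranslated-region boundaries were not used here.

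The tables hold retained pairs only, so an unlisted gene was not measured at 0, and the read depth is unknown. Genes listed per library ran from 99 to 301. The ratio of normalized to weighted abundance in the tables falls into a lower and a higher class, called deeper and shallower here. The labels and headers do not say that these classes differ in read depth, and this was not tested. Hampshire high MM replicate 2 listed 264 genes with no deeper entry, and Pietrain low MM replicate 1 listed 106 with deeper entries alone. All 6 low-MM libraries held entries of the deeper class, against 1 of 6 high-MM libraries (Pietrain high MM replicate 2). The class and MM can therefore hardly be told apart by the titles. By the tab names the counts were 5 of 6 low-MM and 2 of 6 high-MM libraries. Of 10 skeletal muscle markers 8 were listed, with CA3 in all 12 libraries. Adipocyte markers gave 1 of 6, LPL in 2 libraries, fibroblast markers 1 of 6, COL3A1 in 4 libraries that were all low MM by the titles and 2 of each by the tab names, and blood markers 2 of 6, ALAS2 and CD14 in 1 library each. None of the 4 endothelial, 4 smooth muscle and 4 Schwann cell markers was listed.

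After grouping, the 99 entries came down to 26 listings, a listing being a small RNA at a position of a gene in a library. They covered 15 positions and 18 pairs of small RNA and position, 17 in the fast-fibre genes and 1 in MYH7. Of the 26 listings, 16 came from 7 named miRNAs and 10 from unnamed small RNAs, which the tables number separately in each library. MYLK2 was listed in 7 libraries, MYH2 in 5, MYBPC2 in 4, MYL1 in 3 and MYH7 in 1. Only 1.20% of listed genes reached as many libraries as MYLK2. The shares for MYH2, MYBPC2 and MYL1 were 2.68%, 4.65% and 8.75%, while 78.1% of genes, MYH7 among them, were listed in a single library.

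**Figure D1:**
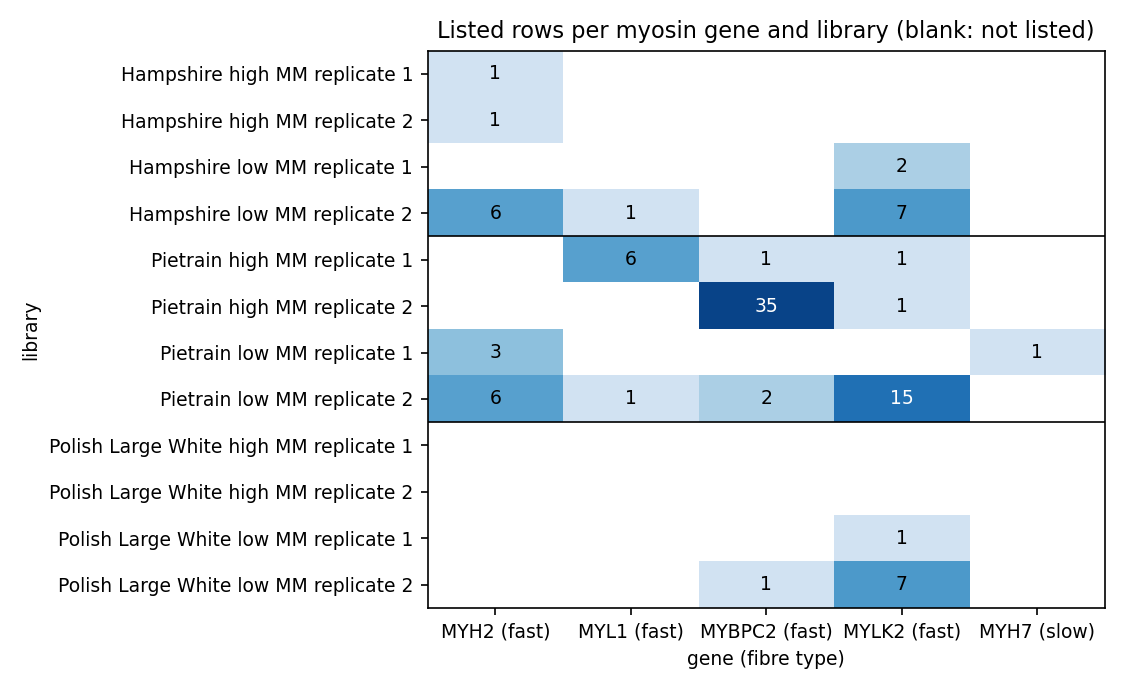
Number of table entries (figures in the cells, darker for more) naming each myosin gene (columns) in each of the 12 libraries (vertical axis, with lines between the breeds). MYLK2 fills 7 libraries, MYH7 fills 1, and both Polish Large White high MM libraries are blank.

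The number of entries did not follow the number of libraries. MYBPC2 had the most entries, 39, of which 33 repeated the same cut in Pietrain high MM replicate 2. MYLK2 had 34 entries, MYH2 17, MYL1 8 and MYH7 1. Members were found in 10 libraries, with 4 of the 5 genes in Pietrain low MM replicate 2 and none in the Polish Large White high MM libraries. Those 2 empty libraries listed 99 and 134 genes in all and held no entries of the deeper class.

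MYH2 encodes the fast 2A myosin heavy chain (ENSSSCG00000029441, chromosome 12, listed on strand -1), the motor of fast oxidative fibres. It was listed at 5 positions, of which 1 recurred between libraries. The recurring position, 55253862, was paired with miR-338-5p in Hampshire low MM replicate 2 and in Pietrain low MM replicate 1. In the Hampshire library it stood in category 3 with a fragment abundance of 2 and a normalized abundance of 0.0128. In the Pietrain library it stood in category 4 with a fragment abundance of 1 and a normalized abundance of 0.00444. Both alignment scores were 4. Hampshire low MM replicate 2 also listed the neighbouring position 55253861 with miR-338-5p, at the same fragment and normalized abundance. The fragments behind the pair at 55253862 matched 10 and 14 windows, and 5 and 3 windows of the site itself were listed.

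The other MYH2 positions each came from a single library. In Hampshire high MM replicate 2 miR-320 was listed at 55234566, in category 2 with a score of 4.5 and a normalized abundance of 0.0355, and this was the entry that gave the identifier alone. Another 1 cut of miR-320 in that library, named MYH4, the fast 2B heavy chain of the same gene cluster, carried the same fragment and weighted abundance. Cuts that share these values with a listing are called matching cuts below, and equal values do not prove that the fragment was the same. In Pietrain low MM replicate 2 miR-130b-5p was listed at 55242138 through 6 windows, in category 3 with a score of 4.5. Its normalized abundance, 0.00183, was the lowest of all 26 listings. In Hampshire high MM replicate 1 an unnamed small RNA was listed at 55240234, with a fragment that matched 843 windows and 12 matching cuts. RefSeq's Sscrofa11.1 places MYH4, MYH1 and MYH2 side by side on this chromosome, and MYH1 encodes the fast 2X heavy chain. By that annotation the positions of miR-320, miR-130b-5p and the unnamed RNA fall in MYH1, and only those of miR-338-5p fall in MYH2. The fast heavy chains are close copies of one another, so it is uncertain which heavy chain was cut at the positions that fall in MYH1. For miR-338-5p, the windows matched beyond the listed ones were not placed, so its heavy chain is not settled either.

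MYH7 encodes the slow, or beta, myosin heavy chain of slow muscle fibres and of the heart (ENSSSCG00000002029, chromosome 7, strand 1). Its single entry placed miR-127 at 75665800 in Pietrain low MM replicate 1. It stood in category 2 with a score of 4 and a p-value of 0.04. Its fragment abundance was 4 and its normalized abundance 0.00436, and the fragment matched 57 windows, with no matching cut. In the same library MYH2 stood at a normalized abundance of 0.00444, with the weaker category 4. All the listings of MYH7 therefore came from 1 library, and none remained without it. The level of MYH7 RNA was not measured by a listing, and in bulk muscle the number of fibres of a type and the RNA per fibre cannot be told apart.

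MYL1 encodes the essential light chains of fast myosin (ENSSSCG00000016157, chromosome 15, strand -1). It was listed in 3 libraries at 3 different positions, each time with an unnamed small RNA, so no MYL1 position recurred. In Pietrain high MM replicate 1 the position was 113040430, in category 3 with a score of 4, a normalized abundance of 0.103 and 27 matching cuts. In Hampshire low MM replicate 2 it was 113061058, in category 4 with a score of 4.5, a fragment abundance of 1 and a normalized abundance of 0.472. In Pietrain low MM replicate 2 it was 113061614, in category 1 with a score of 4 and a normalized abundance of 0.660, the highest of the 26 listings. These last 2 fragments matched 1 window each, the fewest among the 26 listings. The second of them had 4 matching cuts, which cannot be the same fragment if it matched a single window, and the first had none. The 2 positions lie in a noncoding RNA gene of RefSeq, LOC102160916, and not in its MYL1. On the opposite strand the tables name ENSSSCG00000034195 and ENSSSCG00000038840 at the MYL1 entries. MYL1 was the only one of the 5 genes with a gene named on the other strand, so strand decides which gene these 3 listings belong to. No rule for choosing the strand is stated in the labels or the tables. Every entry of the 5 genes has a counterpart on the opposite strand, so the strand of the cut RNA is uncertain for the other members as well.

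MYBPC2 encodes the fast form of myosin-binding protein C, which holds myosin heads in order along the thick filament (ENSSSCG00000003218, chromosome 6, strand 1). It held the only category 0 listings among the 5 genes. At 55293425 Pietrain high MM replicate 2 listed both miR-4334-3p, with a score of 3.5 and a p-value of 0.02, and miR-339-5p, with a score of 4.5 and a p-value of 0.05. Both rested on the same end, with a fragment abundance of 8 and a normalized abundance of 0.00471. Pietrain low MM replicate 2 listed miR-4334-3p at the same position, in category 4 with a fragment abundance of 1 and a normalized abundance of 0.00489. The position was thus listed in 2 of the 4 Pietrain libraries, 1 of each MM group, and the category was strong in the first and weakest in the second. The fragment matched 52 and 50 windows, with no matching cut in either library.

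Unnamed small RNAs gave the other MYBPC2 positions. At 55306656 the score was 3, among the closest of the 26 listings, in Pietrain high MM replicate 1 and Polish Large White low MM replicate 2, with normalized abundances of 0.0996 and 0.0350. The matching cuts numbered 26 and 22 in those libraries. At 55301205 a single entry stood in Pietrain low MM replicate 2, in category 3 with a normalized abundance of 0.0150 and no matching cut. The 33 entries at 55327012 in Pietrain high MM replicate 2 ran through 21 windows, in categories 2 to 3 with a score of 4.5. Their normalized abundance was 0.0803 in the shallower class and 0.0104 in the deeper class, and 1 matching cut lay in TMEM245. That position lies outside RefSeq's MYBPC2. Polish Large White low MM replicate 2 listed the same position in 12 entries that named no gene, in category 2 with a normalized abundance of 0.0586. Counting by gene name thus recorded this cut in 1 library, and counting by position in 2.

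MYLK2 encodes skeletal myosin light chain kinase (ENSSSCG00000007231, chromosome 17, strand 1). All 7 libraries that listed it did so at the position 35511064 with miR-4331-5p, which made it the most widely listed position of the 5 genes. The normalized abundance there was 0.00662 in Hampshire low MM replicate 1 and 0.0190 in Hampshire low MM replicate 2. In the Pietrain libraries it was 0.240 in high MM replicate 1, 0.0475 in high MM replicate 2 and at most 0.0466 in low MM replicate 2. In the Polish Large White libraries it was 0.145 in low MM replicate 1 and 0.0973 in low MM replicate 2. The 2 values above 0.1 came from libraries in which the listing was of the shallower class. The lowest came from Hampshire low MM replicate 1, and Pietrain low MM replicate 2 also held a lower value of 0.0154 at this position. The high MM values lay within the range of the low MM values except for Pietrain high MM replicate 1, which stood above it. By the tab names Pietrain low MM replicate 2 was the only high MM library, and its values lay within the range of the others. These values carry a normalization factor that differs between the classes, so their order across libraries was not tested.

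**Figure D2:**
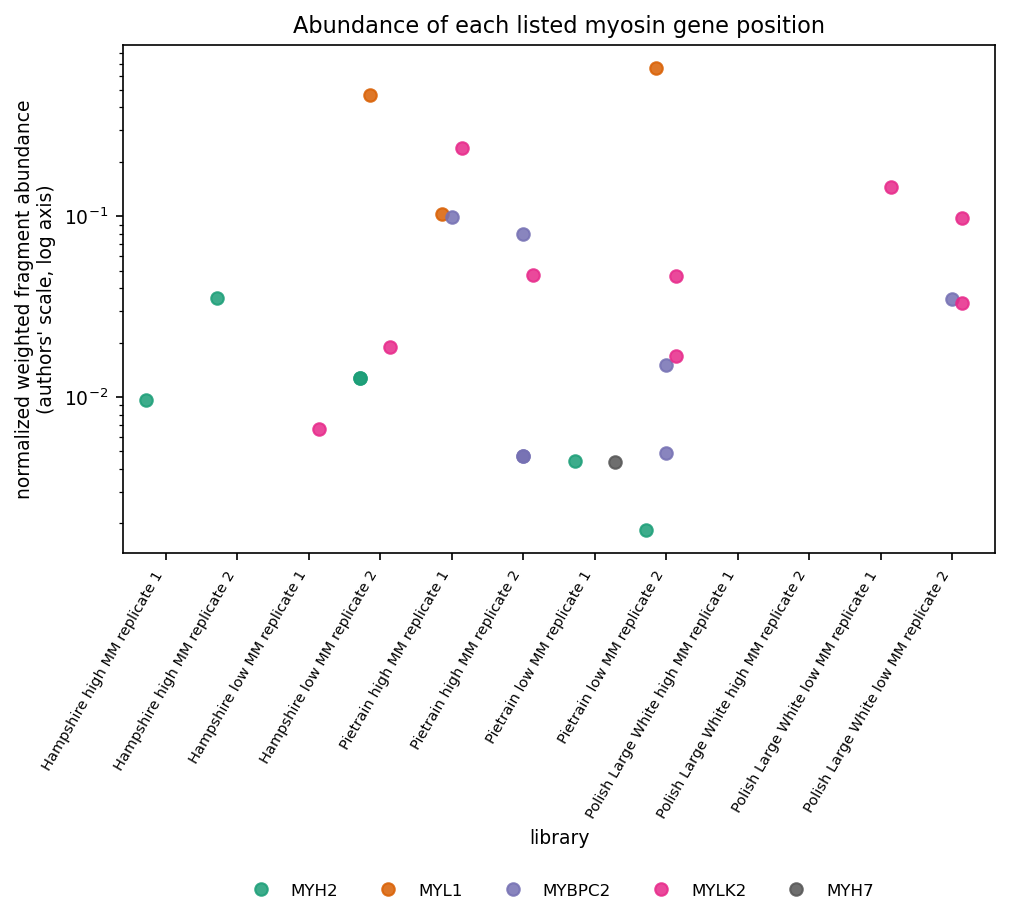
Normalized weighted fragment abundance (vertical log axis, the scale of the deposited tables) of each of the 26 listings, by library (horizontal axis), with a colour per gene and no error bars because each point is a single listing; where a listing held 2 values the larger is drawn. The MYLK2 points spread from 0.00662 to 0.240, and the points of MYL1 include the highest values, 0.472 and 0.660.

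At this position the fragment abundance ran from 20 in Hampshire low MM replicate 1 to 580 in Polish Large White low MM replicate 2. The category was 2 in 4 libraries, 3 in 2 libraries, and 2 to 3 over the 12 entries of Pietrain low MM replicate 2. The best score was 4 in 5 libraries, 4.5 in Hampshire low MM replicate 1 and 3 in Hampshire low MM replicate 2. The fragments matched 197.4 to 326 windows, more than the 62 that a single cut can fill, with 7 to 13 matching cuts in the same library. Taken over the 12 libraries, all of which listed it, miR-4331-5p was paired with 509 positions. The 27 entries at MYLK2 are part of its 2576 entries. The place of this cut in the genome is therefore uncertain, although the same position was listed in 7 libraries.

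A second MYLK2 position, 35507229, was listed with an unnamed small RNA in Pietrain low MM replicate 2 and in Polish Large White low MM replicate 2. The normalized abundances were 0.0169 and 0.0330, both in category 3 with a score of 3.5. The fragments matched 39 and 26 windows, fewer than a single cut can fill. The first had no matching cut, and the second 5. Both libraries also listed the miR-4331-5p position.

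**Figure D3:**
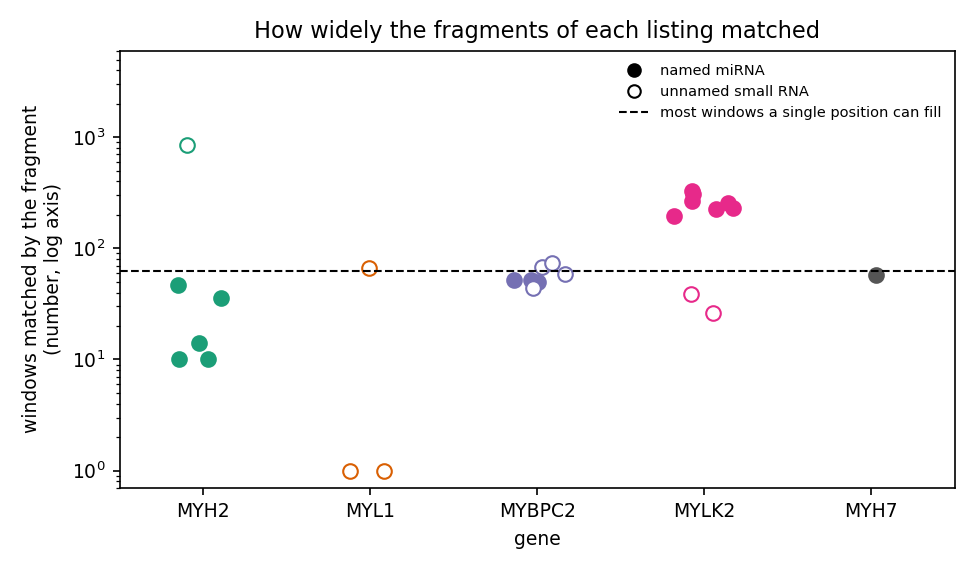
Number of genomic windows matched by the fragment of each listing (vertical log axis), by gene (horizontal axis, points spread sideways for legibility), with filled points for named miRNAs and open points for unnamed small RNAs. The dashed line marks 62, the most windows a single cut can fill: all 7 miR-4331-5p listings of MYLK2 lie above it, and 11 of the 26 listings do.

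Under unnamed small RNAs, 3 positions recurred between libraries: 55306656 and 55327012 on chromosome 6 and 35507229 on chromosome 17. The numbers of these RNAs differ between libraries, and their sequences were not used here. The unnamed RNA at MYLK2 in Pietrain low MM replicate 2 had 194 positions in its library and that in Polish Large White low MM replicate 2 had 109, and 18 positions were shared, 9.28% and 16.5% of each list. The RNAs at 55306656 shared 7 positions, 6.60% and 6.42%. Those at 55327012 shared 3, 23.1% and 13.6%. The RNA at 55306656 in Pietrain high MM replicate 1 and that at MYLK2 in Pietrain low MM replicate 2 met at none of the positions above. They still shared 5 positions, 4.72% and 2.58%. Whether any of these RNAs are the same was not tested. Among named miRNAs, 3 pairs of miRNA and position recurred: miR-338-5p at MYH2, miR-4334-3p at MYBPC2 and miR-4331-5p at MYLK2.

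Of the muscle miRNAs, miR-1 and miR-133b had 0 entries anywhere in the tables. The muscle miRNAs miR-133a-3p, miR-206, miR-208b and miR-499-5p, of which miR-208b and miR-499 are encoded within myosin heavy chain genes in mammals, were listed in the tables with 952, 154, 76 and 990 entries. None of these entries, which covered 4 to 7 positions per miRNA, fell at any of the 5 genes. The 5 genes held only 99 of all 19855 entries. With so few positions, the absence cannot be read as a result about these miRNAs and myosin genes. Beyond miR-4331-5p, the other named miRNAs at the 5 genes had fewer target positions, from 2 for miR-130b-5p to 13 for miR-4334-3p. The unnamed RNAs compared above had up to 194 in a single library. miR-338-5p had 326 entries over 6 positions in 7 libraries, of which 9 entries and 2 positions belonged to MYH2.

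Fast-fibre and slow-fibre members were compared by description, since a single slow gene allows no replicated comparison. The fast genes gave 17 pairs of small RNA and position in 10 libraries, and MYH7 gave 1 pair in 1 library. Of the 15 positions of all members, 9 lay inside the RefSeq gene of that name, and all those outside belonged to fast genes. The fast pairs also count the neighbouring positions 55253861 and 55253862 of miR-338-5p separately. The median score was 4 for the 25 fast listings, equal to the score of the MYH7 listing. Categories 0 to 1 held 3 of the 25 fast listings, and the MYH7 listing stood in category 2. Compared with all 2373 listings of genes in the tables, the 26 myosin listings held 11.5% in categories 0 to 1 against 14.8%. Scores of 4 or more made up 73.1% of the myosin listings against 66.8%, with a median of 4 in both. Fragments that matched more than 62 windows made up 42.3% against 49.9%. The myosin listings thus lay near the whole table in category, score and matching, and no test was run.

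**Figure D4:**
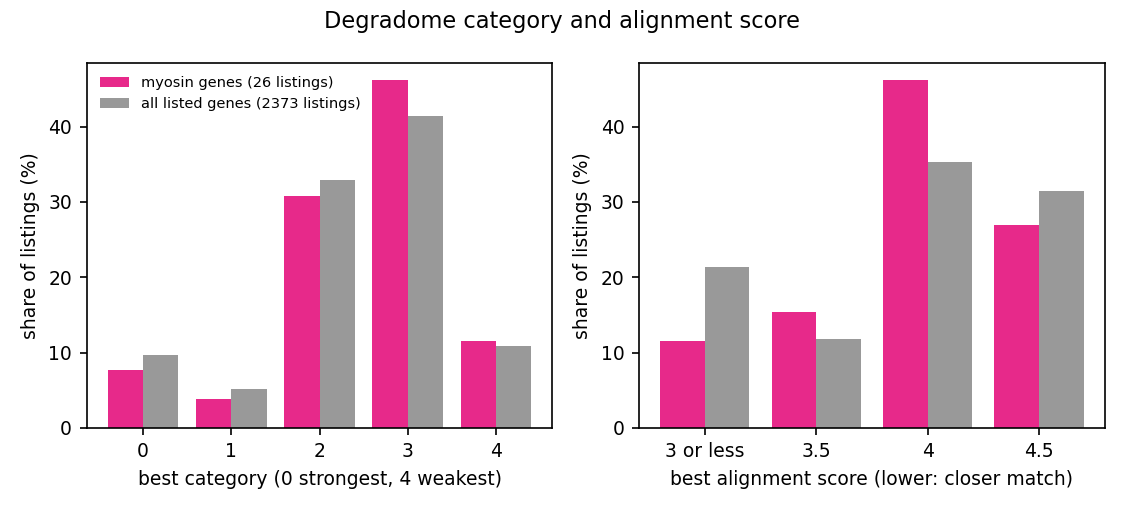
Share of listings (vertical axes, percent) by best category (left) and best alignment score (right), for the 26 myosin gene listings and all 2373 gene listings. Category 3 and a score of 4 are the most common values in both sets, with 12 of the 26 myosin listings in each.

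The design asks whether listing differed between high and low MM. MYLK2, the kinase, was listed in 5 of 6 low-MM and 2 of 6 high-MM libraries, a difference of -50.0 percentage points for high minus low. In an exact two-sided permutation test of MM within breeds it did not pass (p = 0.278, adjusted p = 1 by Benjamini-Hochberg over 307 genes listed in 2 to 10 libraries). None of the 307 genes passed in this comparison, 0.0%, and 0 had an unadjusted p under 0.05. The smallest p that the relabellings allow is 0.00926, and a lone gene at that value would not pass the adjustment over 307 genes. No member could thus pass on its own, and the result does not show that listing was equal. By the tab names MYLK2 stood at 6 of 6 low-MM and 1 of 6 high-MM libraries (exact p = 0.0278, adjusted p = 1). Among the 7 libraries with entries of the deeper class 6 listed MYLK2, and among the 5 with the shallower class alone 1 did. In shallower entries alone it stood in 2 of 4 low-MM and 1 of 6 high-MM libraries. The part of the class in the difference was not tested beyond this. The difference was the same when only positions inside the gene of that name in RefSeq were counted.

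The other members showed smaller differences. MYH2 stood in 3 libraries of low MM and 2 of high MM (exact p = 1, adjusted p = 1), and in 1 and 4 by the tab names, where high exceeds low. MYH2 was also listed more often in high MM when the shallower entries alone were counted and when the Pietrain libraries were left out. Both high-MM listings by the titles, in the Hampshire high MM libraries, lie in RefSeq's MYH1. Inside RefSeq's MYH2 the titles give 2 libraries of low MM and 0 of high MM (exact p = 0.500, adjusted p = 1), and the tab names give 1 of each. MYL1 was listed in 2 low-MM libraries and 1 high-MM library by both readings (exact p = 1, adjusted p = 1). Inside RefSeq's MYL1 only Pietrain high MM replicate 1 remained, 0 low and 1 high by the titles and 1 low and 0 high by the tab names. MYBPC2 stood at 2 and 2 by the titles (exact p = 1, adjusted p = 1) and at 3 and 1 by the tab names. MYH7, in a single low-MM library that is high MM by its tab name, was not tested. Counting each gene once per library, the 5 genes made up 13 of 1126 gene detections in low-MM libraries, 1.15%, and 7 of 905 in high-MM libraries, 0.773%. By the tab names they made up 12 of 1027, 1.17%, and 8 of 1004, 0.797%.

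Between breeds, listing was compared by an exact permutation test of the variance between breeds, in which larger values count against equality. MYH2 was listed in 3 Hampshire, 2 Pietrain and 0 Polish Large White libraries (exact p = 0.212, adjusted p = 1). MYBPC2 stood at 0, 3 and 1 (exact p = 0.200, adjusted p = 1). Without Pietrain low MM replicate 1, which did not list it, MYBPC2 was in all 3 Pietrain libraries left (exact p = 0.0303, adjusted p = 0.584), and in the shallower class alone the exact p was 0.0167 (adjusted p = 0.706). MYLK2 stood at 2, 3 and 2 (exact p = 1, adjusted p = 1), the most even of the 4 genes tested. MYL1 stood at 1, 2 and 0 (exact p = 0.709, adjusted p = 1), and MYH7 was listed in 1 Pietrain library. With all 12 libraries and both classes, none of 307 genes passed, 0.0%, and 2 had an unadjusted p under 0.05, neither of them among the 5. The smallest exact p over these genes was 0.00606, and a lone gene at that value would not pass the adjustment either. Counted once per library, the 5 genes made up 1.54% of gene detections in Pietrain libraries, 0.856% in Hampshire and 0.488% in Polish Large White.

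A wider list of 49 thick filament genes and genes that control myosin had 8 listed, and none of those in 2 or more libraries passed either test. MYOM2, which encodes an M-band protein that links thick filaments, was listed in 4 libraries, 3 of low and 1 of high MM by the titles and 2 of each by the tab names, with a best category of 0. MYLK4, a related kinase, and MYBPC1, the slow form of myosin-binding protein C, were in 2 libraries each. MYH4, MYBPH, TTN and PPP1CB, a catalytic subunit of the phosphatase that dephosphorylates the light chain, were in 1 each.

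Other fibre-type genes lie outside the thick filament. Of 8 fast-fibre genes 3 were listed: TPM1, a tropomyosin, in 12 libraries, ATP2A1, the calcium pump of fast fibres, in 9, and TNNI2, fast troponin I, in 2. Of 8 slow-fibre genes 3 were also listed: ATP2A2, the calcium pump of slow fibres, and CSRP3 in 2 libraries each, and MYOZ2 in 1. ATP2A1 and TPM1 were among the genes paired with miR-4331-5p, as was CSRP3. The fast and slow lists thus had equal numbers of listed genes. TPM1 and ATP2A1 reached more libraries than any of the 3 slow-fibre genes, while TNNI2 did not, and no test was run. Fragments of TPM1 matched up to 1947 windows and those of ATP2A1 up to 1850, against up to 309.1 among the slow-fibre genes, for CSRP3. The place of some of these cuts is therefore uncertain, and TPM1 was listed on both strands.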

How the data were processed

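Total RNA of pig loin, with RNA integrity numbers over 7, went into PARE libraries, per the labels' protocols. Per the submitters' processing notes, CASAVA 1.8.2 and FastQC were used. PAREsnip made the tables, per the file headers. Aligner, build, annotation, small RNA set and filter: not given in the sources used here. Of the deposited values, the category, alignment score and fragment abundance were used as scores, since fragment abundance holds an unexplained excess of multiples of 20. The deposited p-value was rounded by the authors and never exceeds 0.05. The weighted and normalized abundances deposited by the authors are signal values of unstated scale. Their ratio gives the factor, and factors under 0.15 were called the deeper class. The number of matching windows is fragment abundance over weighted abundance. For 10 weighted values that read as dates, the normalized values served.

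Computation used Python 3.11.15 with pandas 2.3.3, numpy 2.4.6, scipy 1.17.1 and matplotlib 3.10.9. Gene cells were matched by the identifiers and symbols that the tables pair. Genes of either strand were kept, and all 99 entries have a counterpart on the opposite strand. The sum of start and cleavage position was used for both strands. On strand -1 the 4 cuts with several windows were grouped by that sum. Their sum was therefore constant by construction, which cannot test the choice for strand -1. Listing was tested by exact permutation, two-sided for MM over the 216 relabellings within breeds and, for breeds, over 34650 partitions. Adjustment was by Benjamini-Hochberg at 0.05 over 307 genes in 2 to 10 libraries. The tests were checked on simulated presence data. There many genes shared the same complete split, so the check does not cover a lone gene. The members, gene lists and tests were chosen with earlier results of these data known. Named were the 5 members, their pairs in 2 or more libraries, the pair of lowest category per member, and every listed gene of the lists except 1 that is not reported here; other positions were named so that every position was accounted for. The series' design text speaks of chickens, and the pig labels of the samples were followed. The labels give the replicate numbers and link none of them to a common litter, batch or day.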

Additional observations from a re-analysis of the deposited data

How the results depend on the processing

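No gene passed the listing test under any of 25 alternatives for MM (smallest adjusted p 0.688, 0 to 2 genes at an unadjusted p under 0.05) or 19 for breed (smallest adjusted p 0.570, 0 to 4 genes). A lone gene could not have passed the adjustment under any of these alternatives. These were stricter categories or p-values, named miRNAs alone, no miR-4331-5p, narrower matches, the shallower class, each library left out and, for MM, the tab names, no Pietrain libraries, the replicate block and, added after the data had been seen, 62 windows at most, symbols alone and strand 1 alone, and for both tests positions inside the RefSeq gene alone (230 genes tested). MYH2, at -16.7 points for high minus low MM, turned to 33.3 in the shallower class, 50.0 by the tab names and 25.0 without Pietrain. MYLK2 kept its sign under its 24 alternatives, from -100.0 without Pietrain (0 of 4 high, 4 of 4 low, exact permutation p = 0.0556, adjusted p = 1) to -33.3 in the shallower class or without miR-4331-5p. That exact permutation p is the smallest possible without Pietrain, so that setting could call no gene even before adjustment. Under the replicate block, with 64 relabellings, MYLK2 stayed at -50.0 (exact permutation p = 0.375) and 0 genes passed. Same-numbered libraries correlated at -0.0784 to 0.0664. So few libraries cannot decide whether a shared number stands for a shared litter or batch. The 17 fast pairs became 98 when every window was counted, 4 with at most 10 matching windows and 9 on strand 1 alone, which leaves out MYH2 and MYL1 by construction. The MYH7 pair fell to 0 with at most 10 matching windows and without Pietrain low MM replicate 1. Leaving out each library gave 13 to 17 fast pairs and 0 to 1 slow pairs. Unknown depth limits every statement on unlisted genes.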
